A study of Mus musculus with 6 samples.

Results

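The 10 genes described here encode chaperones and folding enzymes of the endoplasmic reticulum, together with the transcription factor XBP1 and genes known as its targets. They were taken by gene name from a table of 78409 genes measured in cultured mouse nephrogenic stroma, the connective tissue that surrounds forming nephrons at the rim of the fetal kidney. Each name stood in 1 row, and all 10 genes were among the 14834 expressed well enough to be tested. The question put to them was whether their transcripts differed between cells on a high adhesion and on a low adhesion substrate.

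Kidneys of embryonic day 18 mice, wild-type and of the CD1 stock, were pooled. Cells of the nephrogenic zone were freed with pancreatin and collagenase, kept in a sorting buffer that held the ROCK inhibitor Y27632, and sorted for the surface receptor PDGFRa. High adhesion cells were seeded on glass coverslips with a layer of the silicone PDMS that had been incubated in bovine fibronectin at 50000 ng/mL, and low adhesion cells on coverslips incubated at 500 ng/mL. Both were cultured for 18 h before RNA isolation, in DMEM with fetal bovine serum, penicillin and streptomycin. Each of 3 litters gave 1 high and 1 low adhesion library of polyadenylated RNA, so there were 6 libraries and no substrate without fibronectin.

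Secreted and membrane proteins fold in the lumen of the endoplasmic reticulum, where chaperones hold unfolded chains and disulfide isomerases pair their cysteines. When unfolded proteins build up, the sensors IRE1, ATF6 and PERK start the unfolded protein response. IRE1 splices the Xbp1 transcript so that it encodes an active factor, cleaved ATF6 enters the nucleus, and both factors raise chaperone genes partly through the ER stress element, which they bind with the CCAAT-binding factor NF-Y. Stromal cells make much collagen and other matrix, which passes through this compartment. The deposited values are gene totals, so spliced and unspliced Xbp1 transcripts were not told apart.

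The promoters of some of these genes hold a known element of the response. The ER stress element was searched as CCAAT, then 9 bases of any kind, then CCACG, on both strands of RefSeq promoter windows of 300 bases (250 before the annotated start and 50 after, build GRCm38.p6). All 10 genes had a window, and 5 of them held the element, against 37 of all 27025 genes with a window (0.137%). The 10 genes were chosen as chaperones and XBP1 targets, and chaperone genes are known to be raised partly through this element. Their share is therefore a description and no test. The second form of the element, ATTGG, then 1 base, then CCACG, was in no window of the 10 genes and in 12 of all genes (0.0444%). The 6 elements in the 5 genes are shown with 20 bases on either side, in the direction of the gene, with the element in capitals. Where it lies on the opposite strand it is read as its reverse complement. No match says only that these letters were not in the window.
Hspa5 (chr2:34772005-34772063, plus strand): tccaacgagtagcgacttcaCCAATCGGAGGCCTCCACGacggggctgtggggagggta
Hsp90b1, distal (chr10:86705618-86705676, minus strand): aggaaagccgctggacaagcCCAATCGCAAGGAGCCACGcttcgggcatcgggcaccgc
Hsp90b1, proximal, opposite strand (chr10:86705513-86705571, minus strand): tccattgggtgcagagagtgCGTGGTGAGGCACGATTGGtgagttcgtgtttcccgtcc
Calr, opposite strand (chr8:84847055-84847113, minus strand): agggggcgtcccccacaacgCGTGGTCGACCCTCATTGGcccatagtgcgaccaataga
Canx (chr11:50325780-50325838, minus strand): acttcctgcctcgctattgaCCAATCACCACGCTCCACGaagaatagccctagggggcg
Pdia6 (chr12:17266471-17266529, plus strand): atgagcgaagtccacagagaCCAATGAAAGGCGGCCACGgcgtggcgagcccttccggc

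**Figure D1:**
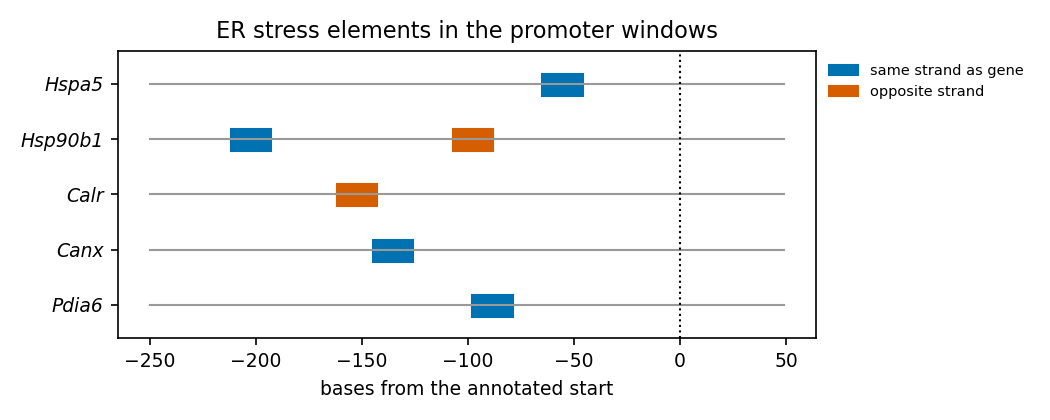
Position of the ER stress element in the promoter windows of the 5 genes that hold it, in bases from the annotated start (dotted line), with blue for the gene's own strand and orange for the opposite strand. The 6 elements begin between 212 and 65 bases before the start, and Hsp90b1 has a pair.

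Total counts ran from 12596249 to 13508257 in the 6 libraries, and a single count was worth 0.074 to 0.0794 CPM (counts relative to the library total). All levels below are the deposited CPM. The 7 stromal markers summed to 5200 to 6020 CPM at high and 5230 to 6040 CPM at low adhesion. Vim and Col1a1 made up most of that sum, while Pdgfra averaged 21.1 CPM at high and 30.7 CPM at low adhesion. Of the 7 markers 6 fell, Pdgfra among them, and Vim rose. The 6 epithelial markers summed to 130 to 140 CPM at high and 79.7 to 91.1 CPM at low adhesion, and of them only Krt19 rose, to 113 CPM at high adhesion, against 69.3 CPM at low adhesion. The other marker sums overlapped between the substrates, although Cited1 of the nephron progenitors rose (edgeR adjusted p = 0.0183) and Emcn of the endothelium fell (edgeR adjusted p = 0.00382). The 4 nephron progenitor markers summed to 34.3 to 56.0 CPM at high and 29.9 to 48.8 CPM at low adhesion, and the 5 endothelial markers to 34.6 to 44.0 CPM at high and 40.4 to 51.5 CPM at low adhesion. The 5 leukocyte markers summed to 11.7 to 27.9 CPM at high and 16.9 to 30.5 CPM at low adhesion, and the 5 erythroid markers to 73.7 to 149 CPM at high and 92.6 to 141 CPM at low adhesion. The 5 markers of B and plasma cells, which are rich in endoplasmic reticulum, summed to 0.675 to 1.59 CPM at high and 0.721 to 1.14 CPM at low adhesion. No marker was at 0 in all 6 libraries. The part of these cells in the results was not tested, and in bulk RNA fewer cells of a type and less RNA per cell cannot be told apart.

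At high adhesion 2 of the 10 genes fell, Hsp90b1 and Calr, and none rose. The differences were -11.7% and -13.7%, and the 8 others did not pass the test. Among all tested genes 9.55% passed (edgeR quasi-likelihood test, litter as a block, adjusted p under 0.05), 4.83% lower and 4.71% higher at high adhesion. With 10 genes, a count of 2 is not read as particular to them. The log2 fold change was negative for 9 of the 10 genes and for 50.4% of all tested genes. It was negative for 8 when scaled by library totals only and for 8 without litter 2, and Xbp1 changed sign in each. The median was -0.07 over the 10 genes and -0.0012 over all. The 10 genes share the same libraries, and Xbp1 at -0.0015 is among the 9, so these figures are a description and no test. In no case were the 3 high adhesion libraries all above or all below the 3 low adhesion ones. That separation held for 15.4% of all tested genes. At high adhesion 6 of the 10 were lower in each litter and 1 higher, against 20.2% and 21.1% of all tested genes.

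Hsp90b1 (ENSMUSG00000020048) encodes GRP94, the HSP90 of the endoplasmic reticulum lumen, a chaperone for integrins and Toll-like receptors. It had 475, 608 and 482 CPM in the high adhesion libraries of litters 1, 2 and 3, against 550, 675 and 542 CPM in the low adhesion libraries. The high adhesion library was the lower one in each litter, while the 2 groups overlapped because both libraries of litter 2 were high. The fold change within litters was close to even, at -0.21, -0.15 and -0.17 on the log2 scale. The fitted log2 fold change was -0.18 ± 0.04 (n = 3 pairs, ± standard error, edgeR adjusted p = 0.00241), a difference of -11.7% with a 95% interval of -16.4% to -6.74%. Without the replicate block the gene did not pass (edgeR adjusted p = 0.75), nor without litter 3, where the log2 fold change was about as large, at -0.18 (edgeR adjusted p = 0.0628).

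Calr (ENSMUSG00000003814) encodes calreticulin, the soluble lectin chaperone that binds newly made glycoproteins and stores calcium. It had 208, 251 and 209 CPM at high adhesion, against 234, 300 and 240 CPM at low adhesion, in the order of the litters. Again the high adhesion library was lower in each litter, and the high adhesion library of litter 2 lay above the low adhesion libraries of litters 1 and 3. Its log2 fold change was -0.21 ± 0.04 (n = 3 pairs, ± standard error, edgeR adjusted p = 0.00082), a difference of -13.7% with a 95% interval of -18.6% to -8.52%. Without the replicate block the adjusted p was 0.643. Leaving out any 1 litter kept the call. Counts of Hsp90b1 and Calr held fractions in 5 of 6 libraries each, so their values are uncertain by an amount that the totals do not give. The same limit holds for the other genes except Hspa5, with fractions in 2 to 4 libraries.

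Canx, the membrane-bound relative of calreticulin in the same glycoprotein cycle, did not pass. Its levels were 336, 375 and 327 CPM at high adhesion, against 355, 388 and 346 CPM at low adhesion. The high adhesion library was lower in 3 of 3 litters, by small amounts. This gave a log2 fold change of -0.07 ± 0.04 (n = 3 pairs, ± standard error, edgeR adjusted p = 0.303), with a 95% interval of -10.1% to 0.641%. The interval reaches changes nearly as large as that of Hsp90b1 and holds no change as well.

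Hspa5 (ENSMUSG00000026864) encodes BiP, the HSP70 of the lumen, which also binds the sensors of the unfolded protein response and is a common readout of it. Its levels were 598, 626 and 532 CPM at high adhesion, against 578, 680 and 579 CPM at low adhesion. The high adhesion library was the higher one in litter 1 and the lower one in litters 2 and 3. The log2 fold change of -0.07 ± 0.04 did not pass (n = 3 pairs, ± standard error, edgeR adjusted p = 0.356), with a 95% interval of -9.79% to 1.06%. In this fit the interval ends just short of a fall of 10%. The log2 fold change was -0.12 without litter 1 and -0.04 without litter 3, so its size varied with the litters used. A fall of 10% was not tested for and is not taken as excluded. Hspa5 counts were whole in all 6 libraries.

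**Figure D2:**
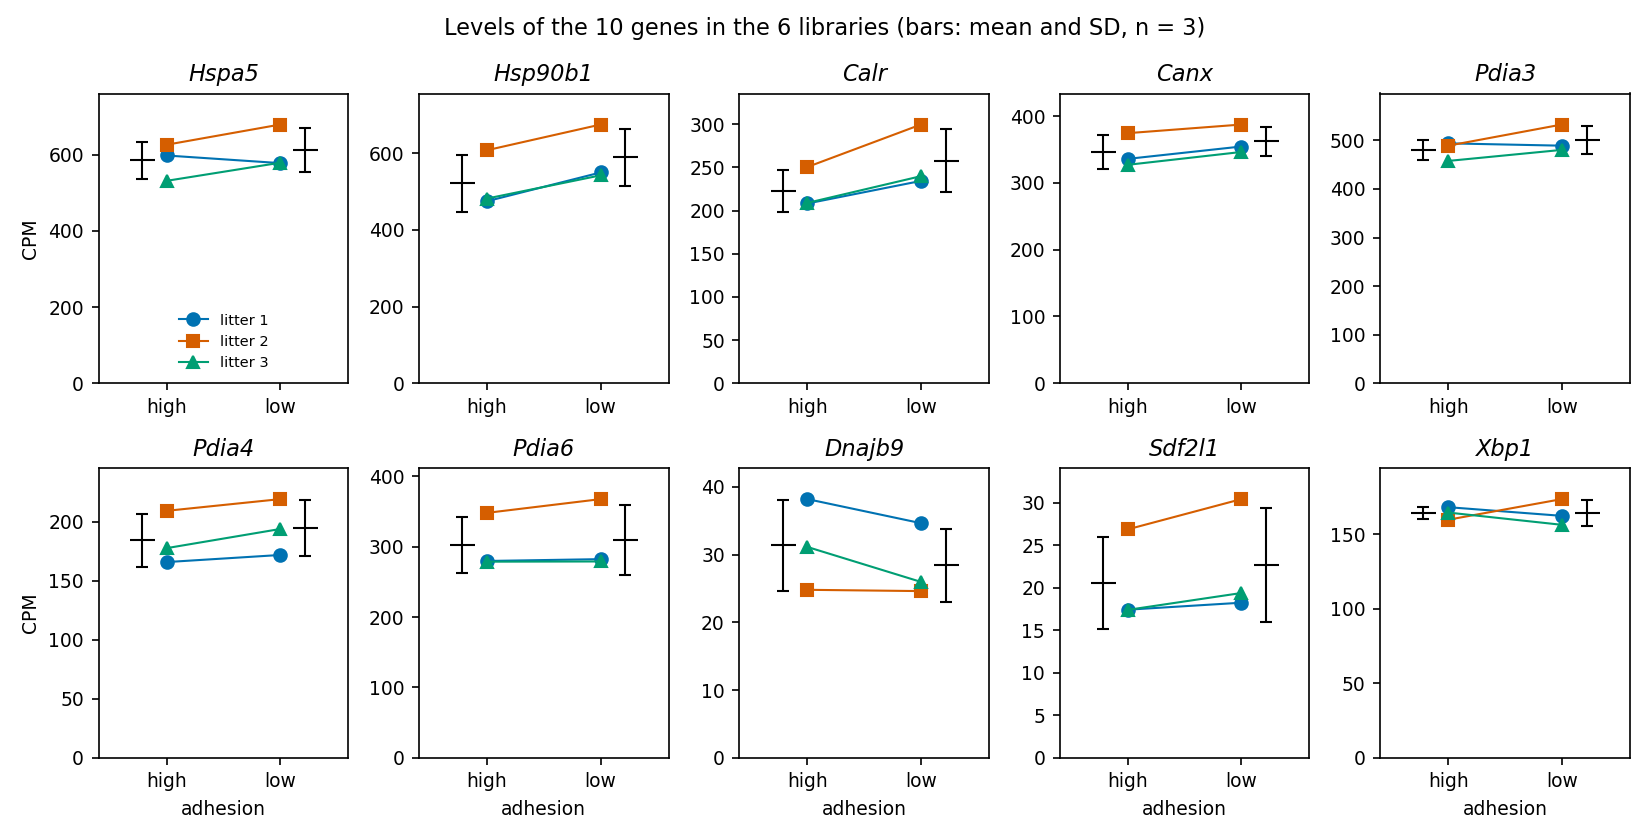
CPM of each of the 10 genes in the high adhesion (left) and low adhesion (right) library of each litter, joined by a line per litter, with the mean and SD of 3 libraries as black bars beside them and the vertical axis from 0. The lines of Hsp90b1 and Calr are lower at high adhesion in all 3 litters, and litter 2 is the top line for most genes.

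The protein disulfide isomerases make and rearrange disulfide bonds. Pdia3, or ERp57, works with calreticulin and calnexin on glycoproteins and had 494, 489 and 458 CPM at high adhesion, against 489, 532 and 480 CPM at low adhesion. Pdia4, or ERp72, had 166, 209 and 178 CPM at high adhesion, against 172, 219 and 194 CPM at low adhesion. Pdia6, or P5, had 280, 348 and 279 CPM at high adhesion, against 282, 368 and 279 CPM at low adhesion. For Pdia4 and Pdia6 the high adhesion library was lower in 3 of 3 litters, for Pdia6 by as little as 0.0018 on the log2 scale in litter 3, and for Pdia3 in 2 of 3. None of the 3 passed. Their log2 fold changes were -0.06, -0.08 and -0.03 in the order Pdia3, Pdia4 and Pdia6, with standard errors near 0.04 (n = 3 each, edgeR adjusted p = 0.386, 0.252 and 0.699).

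Dnajb9 (ENSMUSG00000014905), or ERdj4, is a cochaperone of BiP, a classical target of XBP1 and a known repressor of IRE1. It was the 1 gene of the 10 with a positive log2 fold change. Its levels were 38.2, 24.8 and 31.1 CPM at high adhesion, against 34.6, 24.6 and 25.98 CPM at low adhesion. The high adhesion library was the higher one in 3 of 3 litters, by 0.01 on the log2 scale in litter 2 and by 0.26 in litter 3. The log2 fold change of 0.14 ± 0.07 did not pass (n = 3 pairs, ± standard error, edgeR adjusted p = 0.252), with a 95% interval of -0.392% to 21.5%.

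Sdf2l1 (ENSMUSG00000022769) encodes a partner of BiP and of its cochaperones in the lumen, and its transcript is a sensitive marker of the unfolded protein response. It had 17.4, 26.9 and 17.4 CPM at high adhesion, against 18.2, 30.4 and 19.4 CPM at low adhesion. Both libraries of litter 2 stood above the other 4. The log2 fold change of -0.14 ± 0.08 was lower in 3 of 3 litters and did not pass (n = 3 pairs, ± standard error, edgeR adjusted p = 0.288). Dnajb9 and Sdf2l1, with standard errors of 0.07 and 0.08, were measured less precisely than the other 8 genes, for which they were 0.04 to 0.05.

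Xbp1 (ENSMUSG00000020484) itself had 168, 160 and 164 CPM at high adhesion, against 162, 173 and 156 CPM at low adhesion. It was higher at high adhesion in litters 1 and 3 and lower in litter 2. The means were 164 ± 4.24 CPM at high and 164 ± 8.72 CPM at low adhesion (SD, n = 3 each). The log2 fold change was -0.0015 ± 0.05 (standard error, edgeR adjusted p = 0.99), with a 95% interval of -6.35% to 6.57%. This bears on the total transcript and not on its splicing.

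**Figure D3:**
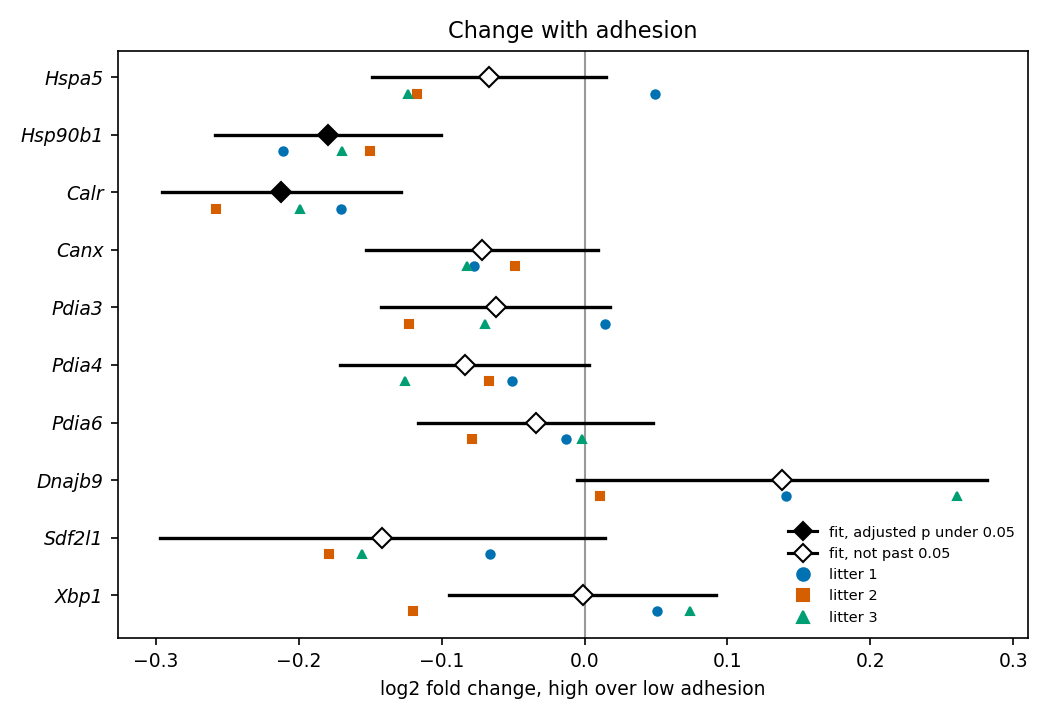
Log2 fold change of each gene, high over low adhesion, as fitted (diamonds, with 95% intervals as lines, filled where the adjusted p is under 0.05) and within each litter (coloured symbols, from deposited CPM). The intervals of Hsp90b1 and Calr lie below 0, and all others hold 0. That of Dnajb9 lies mostly above it, and those of Hspa5, Canx, Pdia3, Pdia4, Pdia6 and Sdf2l1 lie mostly below it.

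More of these genes differed between litters than between substrates. Between litters 8 of the 10 genes differed in edgeR's F-test of the same model, against 17.9% of all tested genes, and the exceptions were Pdia3 (edgeR adjusted p = 0.133) and Xbp1 (adjusted p = 0.718). In 7 of the 10 genes the litter 2 library was the top one on both substrates, which was so for 17.9% of all tested genes. Sdf2l1 was 1.54-fold higher in litter 2 than in the other litters (their geometric mean) at high adhesion and 1.62-fold higher at low adhesion (edgeR litter adjusted p = 1.25e-06). For Pdia6 the folds were 1.25 and 1.31 (adjusted p = 1.06e-06), for Hsp90b1 1.27 and 1.24 (adjusted p = 2.21e-06), and for Calr 1.20 and 1.26 (adjusted p = 1.63e-05). These litter folds exceed the 1.13-fold and 1.16-fold differences of Hsp90b1 and Calr between substrates. Litter 2 was singled out as the top litter of most of the 10 genes, whereas the substrates were fixed beforehand. The folds are therefore not like measures. Without litter 2 the other litters differed for 2 of the 10 genes, Pdia4 and Dnajb9.

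Dnajb9 ran the other way between litters. Its litter 2 libraries were the lowest on each substrate, 1.39-fold below the other litters at high adhesion and 1.22-fold at low adhesion (edgeR litter adjusted p = 8.77e-05). Litter 1 had its highest level on both substrates. Together the 10 genes held 0.278%, 0.312% and 0.268% of all counts in the high adhesion libraries of litters 1, 2 and 3, against 0.288%, 0.339% and 0.286% in the low adhesion libraries. The total was thus lower at high adhesion in each litter and highest in litter 2 on each substrate. That fall was not shared by each gene, since in litter 1 Hspa5, Pdia3, Dnajb9 and Xbp1 were higher at high adhesion. The 6 other genes, Hsp90b1 and Calr among them, were lower at high adhesion in each litter, which held for 20.2% of all tested genes. Each litter was a pool of kidneys, and litter and pool cannot be told apart.

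**Figure D4:**
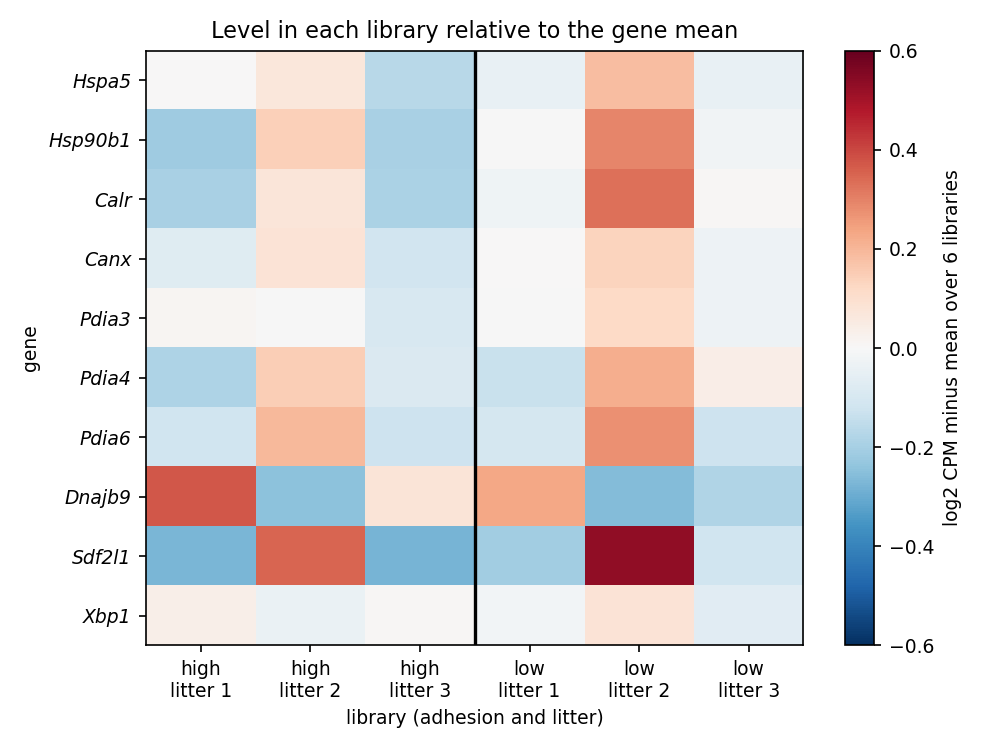
Log2 CPM of each gene in each library minus its mean over the 6 libraries, with the 3 high adhesion libraries left of the black line and the 3 low adhesion libraries right of it. The litter 2 columns are red for most genes on both sides, Dnajb9 is blue there, and Xbp1 is pale throughout.

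Likeness was measured as the mean absolute difference between 2 genes' log2 CPM, each centred on its own mean over the 6 libraries. The values were not scaled, so the size of a gene's deviations counts as well as their pattern. Canx lay nearest to Hspa5 among the other 9 genes, at 0.0439, followed by Pdia3 at 0.0459, and Dnajb9 lay farthest, at 0.30. Of 6331 genes outside all lists with a mean of at least 20 CPM, 54 were nearer to Hspa5 than Canx was and 6163 were nearer than Dnajb9. The nearest were Lamtor2 (0.0169), Bicd2 (0.0185), Vmp1 (0.0187), Yipf5 (0.0235) and Ankrd10 (0.0249). With small differences over 6 libraries that share litters, such a measure ranks many genes closely. Xbp1 (0.0793), which was nearly flat, lay nearer to Hspa5 than Hsp90b1 did (0.0809). Hsp90b1, unlike Xbp1, was highest in litter 2 on both substrates, as Hspa5 was.

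Other genes of folding in the lumen were compared as a list of 23, all of them tested. None rose or fell in edgeR's test, and the median log2 fold change was -0.04. Serpinh1, or HSP47, the chaperone of collagen, had 2759 ± 238 CPM at high and 2744 ± 291 CPM at low adhesion (SD, n = 3 each, log2 fold change 0.01 ± 0.04 standard error, edgeR adjusted p = 0.948). Ppib, a prolyl isomerase of the collagen-modifying complex, had 498 ± 7.53 CPM at high and 500 ± 2.17 CPM at low adhesion (SD, n = 3 each, edgeR adjusted p = 0.935). Between litters 11 of the 23 differed.

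In the list of endoplasmic reticulum associated degradation, which returns misfolded proteins to the cytosol, none of 15 tested genes passed, with a median of 0.02. Ube2j1, a ubiquitin-conjugating enzyme of that route, had a log2 fold change of 0.10 ± 0.05 (n = 3 pairs, ± standard error, edgeR adjusted p = 0.18). Translocon and signal peptidase genes likewise gave none of 16, with a median of -0.0084. Sec61b, a translocon subunit, had 559 ± 24.8 CPM at high and 596 ± 31.9 CPM at low adhesion (SD, n = 3 each, edgeR adjusted p = 0.165), and Ssr3, of the translocon-associated complex, 333 ± 26.6 and 336 ± 13.2 CPM. Sec61b fell without litter 2 (edgeR adjusted p = 0.0067).

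Among 13 genes of N-glycosylation 1 fell and 12 did not pass (median -0.04). The gene that fell, Tusc3, an oxidoreductase subunit of the oligosaccharyltransferase, averaged 71.4 ± 3.24 CPM at high and 79.8 ± 3.83 CPM at low adhesion (SD, n = 3 each, edgeR adjusted p = 0.0444). Its call was lost in 7 of 12 other settings. Among 21 genes of transport to the Golgi 1 fell and 20 did not pass (median -0.04). That was Lman1, or ERGIC-53, a cargo receptor for glycoproteins, with 123 ± 24.2 CPM at high and 142 ± 20.8 CPM at low adhesion (SD, n = 3 each, edgeR adjusted p = 0.00582). It did not pass without the replicate block (edgeR adjusted p = 0.778), without litter 3 (edgeR adjusted p = 0.269) or in DESeq2 with the block (adjusted p = 0.0906).

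Among 11 tested genes of the sensors and transcription factors of the response, 2 fell and 1 rose (median -0.07). Creb3l2 and Creb3l1 encode relatives of ATF6 that drive secretory pathway and collagen genes in cartilage and bone. Creb3l2 averaged 82.3 ± 2.68 CPM at high and 110 ± 10.0 CPM at low adhesion (SD, n = 3 each), a log2 fold change of -0.41 ± 0.05 (standard error, edgeR adjusted p = 9.57e-06). Creb3l1 averaged 73.2 ± 10.4 CPM at high and 85.9 ± 18.4 CPM at low adhesion (SD, n = 3 each, edgeR adjusted p = 0.0069). Creb3, a further relative, rose to 80.4 ± 6.57 CPM at high adhesion, against 69.8 ± 7.18 CPM at low adhesion (SD, n = 3 each, edgeR adjusted p = 0.0149). Without the replicate block none of the 3 passed in edgeR (adjusted p = 0.111, 0.753 and 0.563), whereas Creb3l2 passed in DESeq2 without it (adjusted p = 0.00347). Creb3l1 and Creb3 did not pass in DESeq2 with the block (adjusted p = 0.15 and 0.236), nor in edgeR without litter 2 for Creb3l1 (adjusted p = 0.0626) and without litter 3 for Creb3 (adjusted p = 0.268).

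The genes of the sensors themselves did not pass. Ern1, which encodes IRE1 alpha, averaged 11.2 ± 1.74 CPM at high and 10.5 ± 1.76 CPM at low adhesion (SD, n = 3 each, edgeR adjusted p = 0.685). Eif2ak3, which encodes PERK, averaged 8.63 ± 0.713 CPM at high and 9.93 ± 1.46 CPM at low adhesion (SD, n = 3 each, edgeR adjusted p = 0.291). Atf6 averaged 46.2 ± 7.80 CPM at high and 40.1 ± 3.83 CPM at low adhesion (SD, n = 3 each, edgeR adjusted p = 0.0593). Of 6 transcripts described as substrates of decay by IRE1 in mouse cells, Pdgfrb, a growth factor receptor of the stroma, fell to 42.3 ± 7.94 CPM at high adhesion, against 62.7 ± 17.9 CPM at low adhesion (SD, n = 3 each, edgeR adjusted p = 2.37e-05; without the replicate block 0.542), and 5 did not pass. Pdgfrb is also 1 of the 7 stromal markers, 6 of which fell. Bloc1s1, the substrate most used as a readout, had a log2 fold change of -0.19 ± 0.09 (n = 3 pairs, ± standard error, edgeR adjusted p = 0.227).

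**Figure D5:**
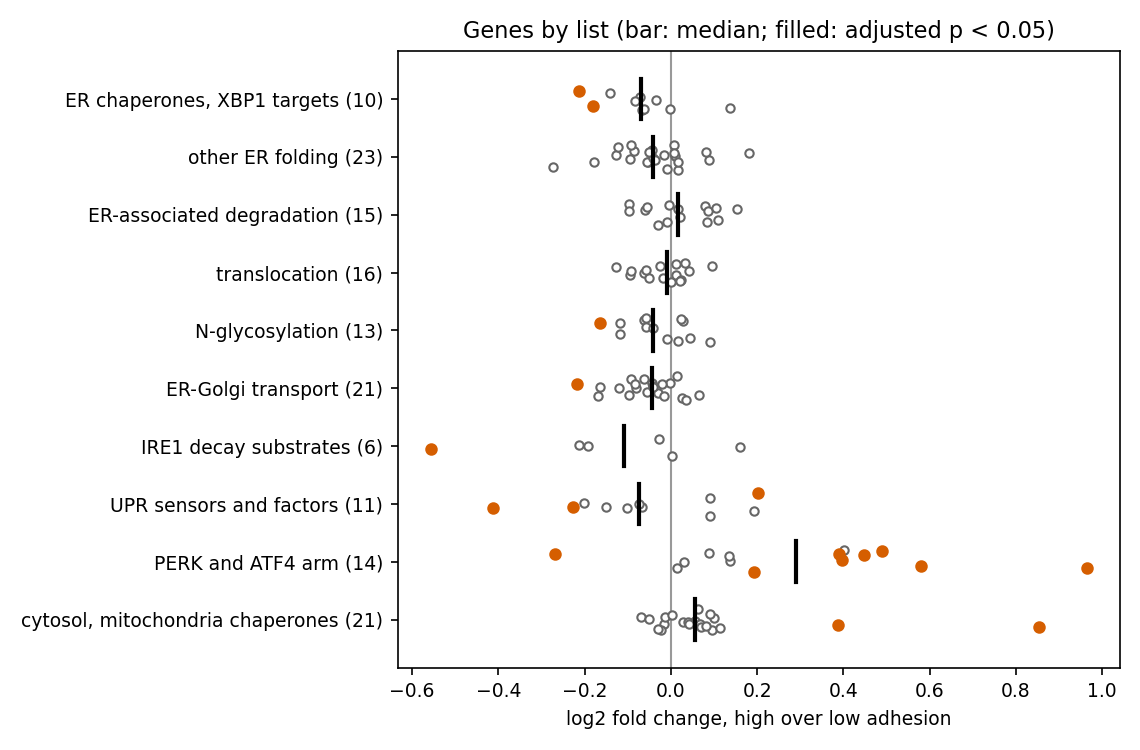
Log2 fold change, high over low adhesion, of the tested genes of each list (1 point per gene, number in brackets, filled where the adjusted p is under 0.05, black bar at the median). The medians of the lists of lumenal folding, degradation, translocation, glycosylation and transport lie within 0.1 of 0, and that of the 6 IRE1 decay substrates is at -0.11. The PERK and ATF4 genes lie mostly to the right, at a median of 0.29.

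In the list for the PERK and ATF4 arm of the response, 7 of 14 tested genes rose, 1 fell and 6 did not pass. That arm lowers translation and raises amino acid genes, and the median log2 fold change of the list was 0.29. Among all tested genes 4.71% rose and 4.83% fell. The gene that fell was Cebpb, with 464 ± 123 CPM at high and 553 ± 113 CPM at low adhesion (SD, n = 3 each, edgeR adjusted p = 5.34e-05). Ppp1r15a, the phosphatase subunit GADD34, rose 1.32-fold to 163 ± 44.4 CPM at high adhesion, against 123 ± 26.99 CPM at low adhesion (SD, n = 3 each, edgeR adjusted p = 4.48e-06), and Vldlr and Asns rose 1.495-fold and 1.31-fold (adjusted p = 1.38e-05 and 1.42e-05). Without the replicate block these 3 did not pass in edgeR (adjusted p = 0.69, 0.135 and 0.268), whereas Vldlr passed in DESeq2 without it (adjusted p = 0.012). Whether that list differs from the 10 genes was not tested. The activity of PERK was not measured, and whether the genes of the list rose through it was not tested. Of 21 chaperones of the cytosol and the mitochondria 2 rose and 0 fell (median 0.06). Hspb1, or HSP27, rose to 541 ± 28.2 CPM at high adhesion, against 299 ± 26.4 CPM at low adhesion (SD, n = 3 each, edgeR adjusted p = 1.23e-13), with and without the replicate block. The other, Hspa1a (edgeR adjusted p = 0.0239; without the replicate block 0.735), is uncertain because the counting could split reads between it and its near-identical copy Hspa1b. Its log2 fold change of 0.39 was 0.21 without litter 1 (edgeR adjusted p = 0.472), and it did not pass in DESeq2 with the block (adjusted p = 0.557).

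Beyond the 10 genes, 19 tested genes held either form of the ER stress element, and none of these passed between substrates, with 10 negative log2 fold changes and a median of -0.02. Without litter 1 Nucb1, a calcium-binding protein of the Golgi, fell (log2 fold change -0.29, edgeR adjusted p = 0.0161). Hsp90b1 and Calr were thus the 2 called among 24 tested genes with an element, while 9.55% of all tested genes were called. The count of 2 is not read as particular to genes with an element. Creld2 and Dnajc3, a secreted folding factor and a cochaperone of BiP that hold the element, had log2 fold changes of -0.12 ± 0.06 and -0.09 ± 0.05 (n = 3 pairs, ± standard error, edgeR adjusted p = 0.222 and 0.248). Herpud1, a degradation factor that holds the second form, had one of 0.15 ± 0.07 (adjusted p = 0.217). Creld2 and Dnajc3 also differed between litters (edgeR litter adjusted p = 3.28e-06 and 2.85e-05), and Herpud1 did not pass that test (adjusted p = 0.733). Of the 5 genes with the element in the window 2 were called between substrates and 5 between litters, and of the 5 with no match none and 3. Among all tested genes 9.55% were called between substrates and 17.9% between litters. The 5 with no match include Dnajb9 and Sdf2l1, which were measured less precisely. A link between the element and the calls was not tested.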

How the data were processed

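Polyadenylated RNA of 6 libraries was measured, 3 from high and 3 from low adhesion substrates, with litters numbered 1 to 3 in the sample titles and stated as matched in the series text. Each replicate is a litter of pooled kidneys. The authors' tools included, per the submitters' processing notes, fastp 0.24.0, STAR 2.7.11 and featureCounts of Subread 2.1.1 on build GRCm39. The sources used here do not give strand, annotation release or the treatment of shared reads. Deposited values are estimated counts per gene, of which 57.3% to 59.8% per library sat in genes with fractional values, and CPM by the authors that equal those computed from these counts within 5.1e-11. Levels, means and differences within litters use the deposited CPM.

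Rounded counts went into edgeR 4.0.16 (R 4.3.3), with filterByExpr (14834 genes kept), TMM factors of 0.988 to 1.01, and a robust quasi-likelihood model with litter as a block. The choice of block rests on the litter-matched design. Same-litter libraries deviated together across genes, with correlations of 0.58, 0.58 and 0.36 for litters 1 to 3. The block lowered the biological coefficient of variation to 4.06%, against 10.7% in its absence. Benjamini-Hochberg adjustment covered all tested genes, with two-sided tests and a threshold of 0.05. Fold changes are high over low adhesion, their standard errors are the log2 fold change divided by the root of F, and intervals are 95% from the same fit. The litter test is an F-test of the litter terms. Alternatives used DESeq2 1.42.0, limma 3.58.1, other scalings and filters, unrounded counts and each litter left out. The fit was tested on simulated data.

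The 10 genes and all lists were chosen with earlier results of these data known, and no list was tested as a set. Of each other list, the called genes of lowest adjusted p were named (at most 3), or the 2 of highest CPM where none was called. Pdgfra, Vim, Col1a1, Krt19, Cited1, Emcn, Nucb1, Ern1, Eif2ak3, Atf6, Bloc1s1, Cebpb, Creld2, Dnajc3, Herpud1 and Hspa1b were named after their values were seen. Symbols matched a RefSeq promoter window for 9819 tested genes. One gene that the rule takes is not reported here. A planned comparison by protein retention signal was not run, since no protein sequences were used here.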

Additional observations from a re-analysis of the deposited data

How the results depend on the processing

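The calls rest on pairing by litter. Genes called between substrates numbered 1416, and 36 without the replicate block (1359 at an unadjusted p under 0.05), 406 with DESeq2, 122 with DESeq2 and no replicate block, and 908 to 1553 with 1 litter left out, the fewest without litter 3. Of the 10 genes 2 were called, and 0 without the replicate block in edgeR and in DESeq2 (0 at an unadjusted p under 0.05 in each), and 1 to 2 with 1 litter left out. Genes with an ER stress element gave 2, then 0 in both of those settings and 1 to 3 with 1 litter left out. The other lists together gave 16, then 1 without the replicate block, 9 with DESeq2 and 3 with DESeq2 and no replicate block. Between litters 2655 genes were called, 866 with DESeq2 and 1384 to 2687 with 1 litter left out. Of the 10 genes 8 were called there, 7 with DESeq2, and 2 to 7 with 1 litter left out. No litter test is possible without the block. Scaling, filtering, rounding and limma-voom kept Hsp90b1 and Calr called. Of 372 values of single genes under the alternatives, 328 kept direction and side of the threshold, 36 lost the call and 1 gained it. A further 7 changed sign, all of genes that did not pass. Xbp1 was at 0.0015 with library totals only. With 1 litter left out the log2 fold change ran from -0.036 to 0.047 for Xbp1, -0.025 to 0.035 for Serpinh1, -0.017 to 0.0056 for Ppib, -0.076 to 0.013 for Ssr3 and -0.054 to 0.0087 for Yipf5. The causes were not tested. Without litter 3 Hsp90b1 lost its call at a fold of about the same size, and without litter 2 most litter calls of the 10 genes were lost. Among tested genes averaging 100 CPM or more, the smallest called log2 fold change was 0.0971 in size.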
